A study of Mus musculus with 20 samples.

Results

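Perineuronal nets are lattices of extracellular matrix that wrap the cell bodies and proximal dendrites of many inhibitory neurons, above all those that contain parvalbumin. In these nets, chondroitin sulphate proteoglycans of the lectican family bind hyaluronan, link proteins fasten the bond and tenascin-R joins the free ends. Secreted ADAMTS proteases cut the lectican cores, TIMP proteins inhibit these and other metalloproteases, and the same matrix in a looser form fills the spaces around synapses, nodes of Ranvier and glial precursors. The 36 genes described here are the brain lecticans and other chondroitin sulphate proteoglycans, link proteins, tenascins, hyaluronan synthases, a chondroitin sulphotransferase, 15 ADAMTS proteases and the 4 TIMPs. They were chosen by name as rows of the deposited counts, which list 24421 gene symbols. The rule itself used no measured value, but it was set with earlier results of these data known.

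The counts come from RNA-seq of neocortex and hippocampus from conditional triple knockout (cTKO) mice that lack the APP family in part of their neurons, and from littermate controls. Each combination of genotype and region had 5 libraries, which makes 20. The cTKO mice carried floxed alleles of App, Aplp1 and Aplp2 together with a Camk2a-Cre transgene, which is active in excitatory neurons of the forebrain after birth. The controls, labelled wild type, carried the same floxed alleles without Cre, and all mice were 3 months old, of both sexes and on a hybrid background of C57BL/6J and 129. Both regions came from the same mice, whole tissue was used, and RNA was extracted with different kits from neocortex and hippocampus, so that kit and region cannot be told apart. In such bulk samples, fewer cells of a type and less RNA per cell cannot be told apart either, and since recombination was limited to excitatory neurons, RNA of the other cells was measured with theirs.

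Total counts ranged from 12169474 to 25331954 per library. A floor of 3 counts, which covers counting error only, amounted to between 0.118 and 0.247 per 1e6 total counts. Levels in CPM are counts scaled to a common library size of 1e6 with TMM factors, and some of those printed lie under this floor. App was lower in every cTKO library, at 336 to 407 CPM against 1500 to 1810 CPM in neocortex and 431 to 462 against 1370 to 1650 CPM in hippocampus. Markers of neocortical neurons summed to 311 to 472 CPM in neocortex and 96.1 to 150 CPM in hippocampus, and those of hippocampal neurons to 11.6 to 19.9 and 126 to 249 CPM. Pvalb, which encodes parvalbumin, ranged in the neocortex from 39.5 to 43.5 CPM (controls) and from 32.5 to 49.9 CPM (cTKO), and in the hippocampus from 27.2 to 31.6 and from 23.5 to 30.5 CPM. The inhibitory neuron markers (6 genes, Pvalb among them) summed to 891 to 1020 CPM in neocortex controls and 914 to 1190 CPM in cTKO neocortex, and to 718 to 905 and 794 to 1020 CPM in hippocampus. By this sum, 4 of 5 cTKO libraries lay above every control in each region. The mean log2 CPM of the same genes, in which abundant genes weigh less, overlapped more. It was 6.72 to 6.908 in control and 6.671 to 7.024 in cTKO neocortex, and 6.228 to 6.54 and 6.228 to 6.676 in hippocampus. A pair of libraries stood apart from the other 18. Embryonic tissue genes (such as the embryonic globins, Afp and H19) summed to 380 CPM in cTKO hippocampus library 4 and 618 CPM in cTKO neocortex library 5, against 0.862 to 3.08 CPM elsewhere. Some fitted changes are also given without these libraries, where this is stated. All other fitted changes that involve cTKO mice, and the permutation tests, include them.

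Of the 36 genes, 31 passed the filter of more than 1 CPM in at least 5 of the 10 libraries in each comparison of a pair of groups. Hapln3, Has1, Has2, Adamts19 and Timp1 did not, and their values are given separately. A gene was called a differentially expressed gene (DEG) when its FDR, the Benjamini-Hochberg adjusted p of edgeR's quasi-likelihood test over all genes tested, was under 0.05. Among the 31 genes, 1 was called for genotype in the hippocampus (Adamts18) and 0 were called in the neocortex, whereas 16 differed between the regions of control mice.

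The sequences upstream of Adamts18 and Ncan are printed because these were the members whose hippocampal levels did not overlap between genotypes. They are RefSeq sequences of build GRCm38.p6, 5′ to 3′ on the minus strand, from 250 to 30 bases before the RefSeq start, at chr8:113848869-113849089 for Adamts18 and chr8:70120874-70121094 for Ncan. Capitals mark the GC box (GGGCGG on either strand), which 28.7% of 32851 promoter windows of the same length hold.
Adamts18: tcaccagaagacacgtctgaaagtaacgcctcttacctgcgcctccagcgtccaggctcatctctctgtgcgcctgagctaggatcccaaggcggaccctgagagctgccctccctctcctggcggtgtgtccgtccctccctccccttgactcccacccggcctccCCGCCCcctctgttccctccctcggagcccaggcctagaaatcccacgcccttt
Ncan: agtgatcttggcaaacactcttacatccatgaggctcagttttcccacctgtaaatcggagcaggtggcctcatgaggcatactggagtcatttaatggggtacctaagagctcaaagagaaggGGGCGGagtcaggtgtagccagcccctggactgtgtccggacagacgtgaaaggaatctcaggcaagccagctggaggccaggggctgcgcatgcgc

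Each window held 1 GC box, on opposite strands, and the letters TGACG (the core of a cyclic AMP response element, in 15.0% of the windows), CACGTG (an E-box, in 5.02%) and TATAA (in 19.3%), searched on both strands, were in neither. The window of Adamts18 had a G and C content of 64.7% and that of Ncan of 55.7%. Of the 36 genes, 24 had an entry in this promoter set.

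Several members are neighbours in the genome in pairs of a lectican and a link protein (GENCODE M21 annotation of GRCm38). Ncan (chromosome 8, 70093085 to 70120873) lies 2222 bp from Hapln4 (70083457 to 70090862), Vcan and Hapln1 are 43659 bp apart on chromosome 13, Bcan and Hapln2 are 21519 bp apart on chromosome 3, and Acan ends 2 bp before Hapln3 on chromosome 7. Among the proteases, Adamts8 and Adamts15 are 20109 bp apart on chromosome 9 and Adamts1 and Adamts5 are 53059 bp apart on chromosome 16. App, one of the deleted genes, is on chromosome 16 as well, 620060 bp from Adamts1 with 1 protein-coding gene between them. Adamts18 spans 113697126 to 113848738 on chromosome 8.

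To place the genes by abundance, levels were divided by the exonic length of each gene. In control neocortex, Timp2 was the most abundant member at 103 ± 5.69 CPM per kb (SD, n = 5), followed by Ncan (50.2 ± 4.75), Bcan (48.7 ± 2.22) and Hapln4 (48.2 ± 5.44), and the ranges of the last 3 overlapped. The lecticans neurocan (Ncan) and brevican (Bcan), which glial cells and neurons secrete, were thus far above versican (Vcan) at 2.58 ± 0.311 CPM per kb and aggrecan (Acan), the lectican most tied to perineuronal nets, at 0.802 ± 0.157 CPM per kb. Of the ADAMTS genes, Adamts3 (4.67 ± 0.42) and Adamts4 (4.11 ± 0.713) were the most abundant, and Adamts18 (0.203 ± 0.0805) and Adamts19 (0.0202 ± 0.0125) were the least. In control hippocampus, Timp2 was again at the top with 95.4 ± 15.9 CPM per kb and Adamts19 at the bottom with 0.00909 ± 0.0078 CPM per kb. When the 36 genes were put in order of this level, 25 of the 35 neighbouring pairs overlapped in their libraries in the neocortex and 26 of 35 in the hippocampus, so that the order between close neighbours is not resolved by these libraries.

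**Figure D1:**
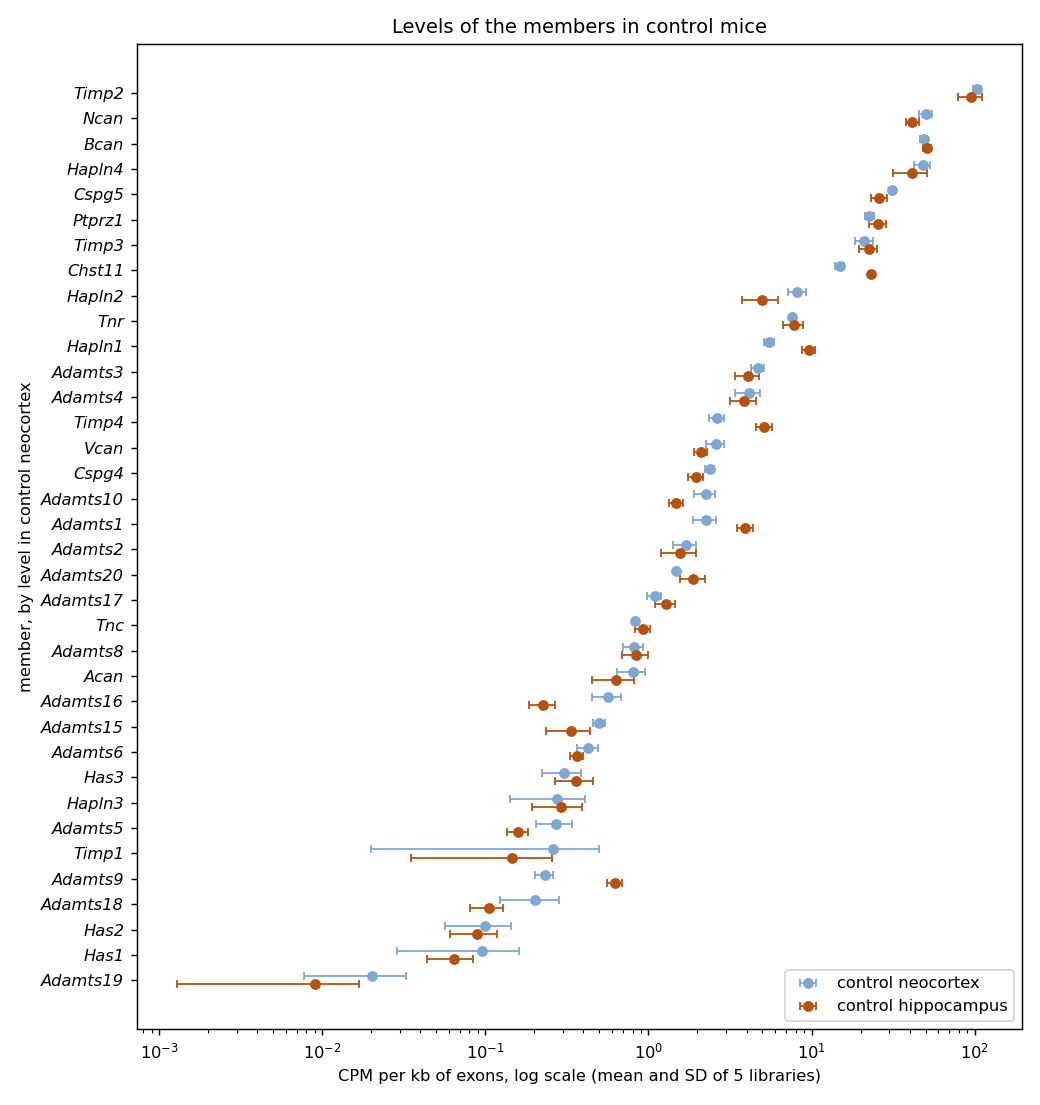
Level of the 36 genes in control mice, as CPM per kb of exons on a log axis (mean and SD of 5 libraries), ordered by the level in control neocortex. Timp2 is at the top with 103 CPM per kb and Adamts19 at the bottom with 0.0202 CPM per kb, and Adamts9, Adamts16 and Timp4 are among the genes whose regions lie apart.

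The first question was whether loss of the APP family in excitatory neurons changed these genes in the neocortex. None of the 31 genes was called (0 of 31), where the share over all genes was 0.188% (26 of 13843). At an unadjusted p under 0.05, 6 of 31 genes were found (19.4%, against 10.4% of all genes), and all 6 had more RNA in cTKO mice (against 5.57% of all genes in that direction): Hapln4, Tnc, Adamts1, Adamts15, Adamts18 and Timp2. The median log2 fold change of the 31 genes was 0.015, beside 0.009 over all genes tested, and 16 of 31 were positive, beside 53.1% of all genes. DESeq2 called 1 of the 31 genes (1.6% of all genes) and edgeR's likelihood ratio test 1 (1.21% of all genes), Timp2 in both.

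Several marker lists also differed between the genotypes of the neocortex. In 4 of 5 cTKO libraries the summed markers of fibroblasts and meninges exceeded every control, at 101, 92.8, 74.6, 91.6 and 322 CPM, where the controls reached 82.7 CPM. Summed inhibitory neuron markers were above every control in 4 libraries and striatal neuron markers in 3, whereas excitatory neuron markers (8050 to 10300 CPM, with controls from 9170 to 10300 CPM) and neocortical neuron markers (311 to 442 CPM, with controls from 393 to 472 CPM) were below every control in 4. Summed markers of astrocytes and of microglia were below every control in 3 each. The part of these lists in the levels of Timp2, Hapln4, Tnc, Adamts1, Adamts15 and Adamts18 in the neocortex was not tested.

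Timp2, an inhibitor of matrix metalloproteases that also helps Mmp14 to activate Mmp2, was at 369, 407, 431, 404 and 400 CPM in the 5 libraries of control neocortex and at 547, 540, 493, 755 and 421 CPM in cTKO neocortex. Only cTKO library 5, the one with embryonic tissue genes, lay within the range of controls. Its log2 fold change was 0.46 (SE 0.12, FDR 0.155, edgeR's quasi-likelihood test), and the exact permutation test of log2 CPM gave p = 0.0159 (two-sided, where this design allows at best 0.00794). Without cTKO neocortex library 5 the log2 fold change was 0.54 with an FDR of 0.0288, so that the call by the quasi-likelihood test depends on this library. With all libraries, DESeq2 (FDR 0.0183) and the likelihood ratio test (FDR 0.0203) called it. Over all alternatives the FDR ranged from 0.0183 to 0.325. In the hippocampus, Timp2 was at 448, 390, 311, 305 and 404 CPM in controls and 403, 385, 364, 256 and 487 CPM in cTKO mice (log2 fold change 0.03, FDR 0.97). The effect in the hippocampus minus that in the neocortex was -0.43 on the log2 scale (SE 0.21, FDR 1.0 for the interaction).

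Adamts15, a protease that cleaves aggrecan and versican, was the only member whose neocortical libraries did not overlap between genotypes (1 of 31, or 3.23%, against 2.39% of all genes, and against 0.795% of all genes with cTKO libraries higher). It was at 4.92, 5.36, 5.37, 4.51 and 5.63 CPM in controls and 6.28, 6.61, 8.69, 5.75 and 10.7 CPM in cTKO mice, the lowest of which lay just above the highest control. Its log2 fold change was 0.56 (SE 0.17, FDR 0.25), the permutation p was 0.00794 (exact, two-sided), and without cTKO library 5 the log2 fold change was 0.41 (FDR 0.243). In the hippocampus it was 0.49 (SE 0.26, FDR 0.477), from 5.18, 3.77, 2.89, 2.97 and 2.57 CPM in controls and 2.75, 4.66, 4.16, 6.53 and 6.32 CPM in cTKO mice, which overlapped.

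Hapln4, the link protein that stabilises brevican in nets of the hindbrain and other regions, was at 215, 170, 181, 171 and 209 CPM in control neocortex and 291, 208, 250, 275 and 177 CPM in cTKO neocortex. In 3 cTKO libraries the level exceeded that of every control, and library 5 was the lowest of its group. Hapln4 thus had a log2 fold change of 0.35 (SE 0.12, FDR 0.313, exact permutation p = 0.0794), or 0.44 without cTKO library 5 (FDR 0.0553). In the hippocampus, Hapln4 was at 222, 126, 134, 161 and 168 CPM in controls and 261, 203, 177, 225 and 180 CPM in cTKO mice, with a log2 fold change of 0.37 (SE 0.15, FDR 0.349, exact permutation p = 0.0635). The estimate was therefore close to that of the neocortex, and neither passed the test.

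Tnc, which encodes tenascin-C, a matrix protein of developing and injured tissue, was within 6.24 to 6.67 CPM in all 5 control libraries of the neocortex and at 8.31, 7.93, 5.87, 11.4 and 10.1 CPM in the cTKO libraries. Library 3 lay below the controls and the other 4 above them, and the log2 fold change was 0.46 (SE 0.16, FDR 0.313, exact permutation p = 0.0476). The hippocampal libraries were at 7.99, 7.62, 7.5, 6.43 and 6.39 CPM in controls and 13.9, 6.84, 8.77, 12 and 8.49 CPM in cTKO mice, with a log2 fold change of 0.48 (SE 0.18, FDR 0.304, exact permutation p = 0.0556). Its partner tenascin-R (Tnr), which cross-links the lecticans of nets, was estimated at -0.09 in neocortex (FDR 0.746) and -0.12 in hippocampus (FDR 0.797). Without the libraries that stood apart, the log2 fold change of Tnc was 0.40 in each region (FDR 0.314 in neocortex and 0.423 in hippocampus).

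Adamts1, a lectican-cleaving protease known to respond to injury and neuronal activity, was at 12.6, 14.9, 11, 10.7 and 10.3 CPM in control neocortex and 20.1, 12.3, 15, 11.3 and 19.8 CPM in cTKO neocortex (log2 fold change 0.40, SE 0.17, FDR 0.421, exact permutation p = 0.0873). Libraries 1 and 5 of the cTKO mice carried the difference, and without library 5 the log2 fold change was 0.31 (FDR 0.496). In the hippocampus the log2 fold change of Adamts1 was -0.11 (FDR 0.818). The hippocampal effect minus the neocortical one was -0.51 (SE 0.23, FDR 1.0), 1 of the members with an unadjusted p under 0.05 for the interaction.

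**Figure D2:**
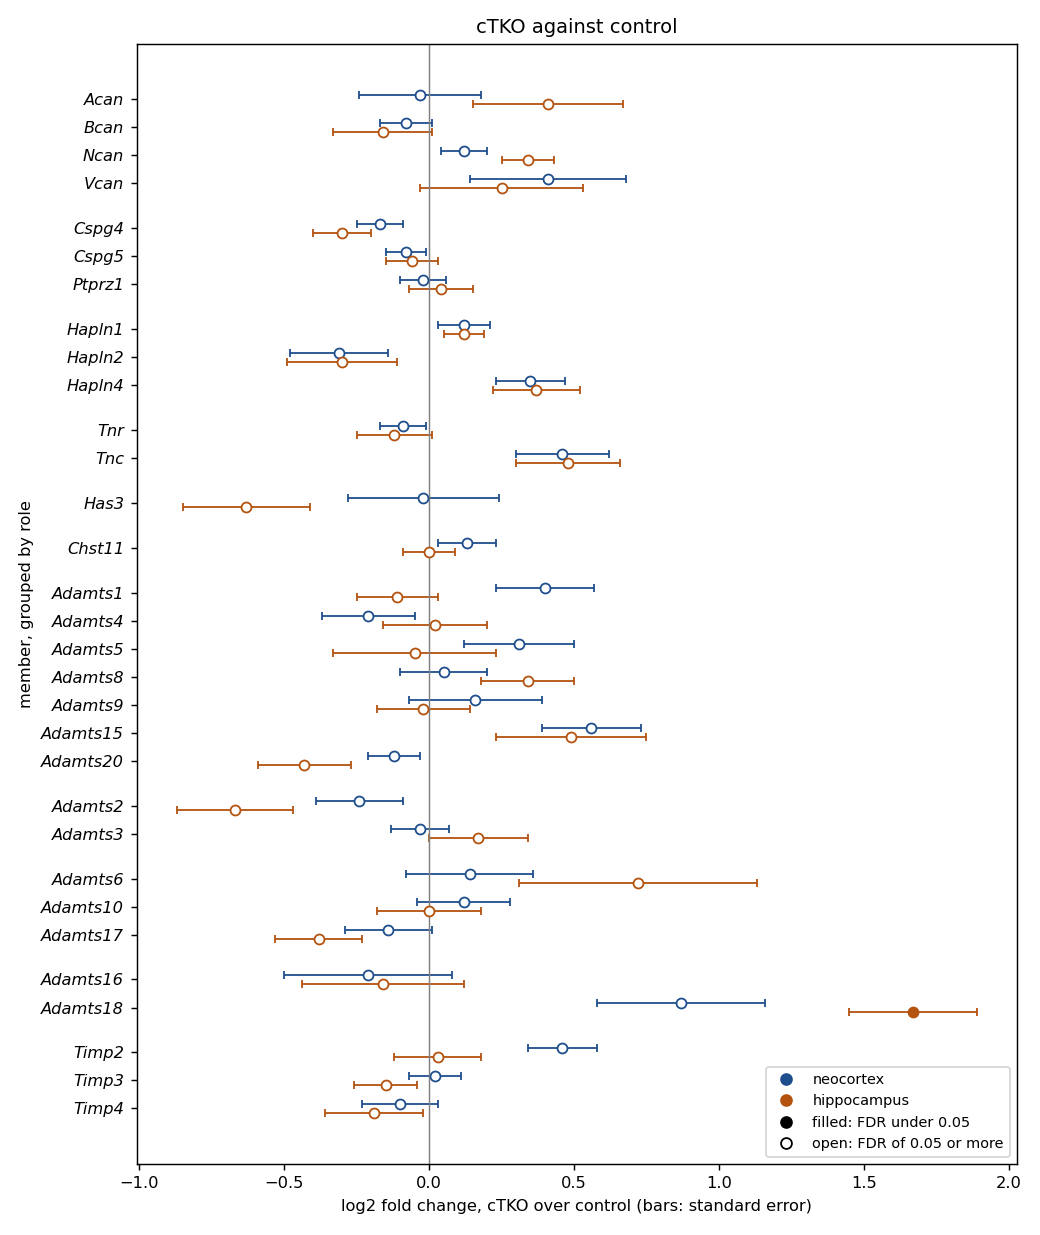
Log2 fold change of cTKO over control (horizontal axis, bars are standard errors) for the 31 tested genes in the neocortex (blue) and the hippocampus (orange), grouped by role, with filled points for an FDR under 0.05. Adamts18 in the hippocampus, at 1.67, is the only filled point, and its neocortical estimate of 0.87 is the highest among the neocortical points.

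The same question was asked in the hippocampus, where 1 of the 31 genes was called (3.23%, against 0.489% of all genes, or 67 of 13702, and 0.314% higher in cTKO mice). At an unadjusted p under 0.05, 9 of 31 genes were found, against 12% of all genes. Of these, 4 had more RNA in cTKO mice (Ncan, Hapln4, Tnc and Adamts18, where 6.13% of all genes were in that direction) and 5 had less (Cspg4, Has3, Adamts20, Adamts2 and Adamts17, where 5.88% of all genes were). The median log2 fold change was -0.002 (0.0049 over all genes), and 15 of 31 estimates were positive (51.6% of all genes). The groups did not overlap for 2 of 31 genes, Ncan and Adamts18 (6.45%, against 3.01% of all genes, and against 1.76% of all genes with cTKO libraries higher). With cTKO hippocampus library 4 left out, 1 gene was called (0.484% of all genes) and 8 had an unadjusted p under 0.05 (11.8% of all genes), 3 of them with more RNA in cTKO mice. In this region, summed inhibitory neuron markers were above every control in 4 of 5 cTKO libraries, though their mean log2 CPM overlapped more, as given above. Summed markers of oligodendrocyte precursors, microglia, neocortical neurons and striatal neurons were below every control in 3 each. The part of all these lists in the members' levels was not tested.

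Adamts18, a secreted protease of the ADAMTS family whose loss is known to disturb the development of the eye, rose in the hippocampus of cTKO mice. The 5 control libraries were at 0.854, 0.942, 1.13, 0.959 and 1.47 CPM and the 5 cTKO libraries at 4.6, 2.48, 3.29, 3.64 and 2.97 CPM. Every cTKO library exceeded every control library, and the means were 1.07 ± 0.243 and 3.4 ± 0.798 CPM (SD, n = 5). Between these groups the log2 fold change was 1.67 (SE 0.22, FDR 0.00487, edgeR's quasi-likelihood test), and the permutation p was 0.00794 (exact, two-sided), the smallest that this design allows. The gene is of low abundance, with 17 to 28 counts in control and 57 to 112 counts in cTKO libraries, and it passed the filter through all 5 cTKO libraries and 2 control libraries. It was called under each of the 18 alternatives, in which the log2 fold change ranged from 1.53 to 1.80 and the FDR from 2.63e-08 to 0.0364. Without cTKO hippocampus library 4 the log2 fold change was 1.64 (FDR 0.00962).

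In the neocortex, Adamts18 was at 3, 1.49, 1.41, 1.5 and 2.92 CPM in controls and 4.52, 3.23, 2.37, 3.16 and 5.79 CPM in cTKO mice. Control libraries 1 and 5 were as high as some cTKO libraries, and the groups overlapped. Here the log2 fold change was 0.87 (SE 0.29, FDR 0.303), with a permutation p of 0.0397 (exact, two-sided), and it was 0.67 without cTKO library 5 (FDR 0.32). No alternative called it in this region, with an FDR between 0.0964 and 0.548. From the same libraries, the authors listed Adamts18 as higher in cTKO mice in both regions (edgeR, FDR under 0.05). They also reported qRT-PCR of other mice, in which Adamts18 was not among the genes that fell short. The effect in the hippocampus minus that in the neocortex was 0.81 on the log2 scale (SE 0.38, FDR 1.0 for the interaction), or 0.96 without the libraries that stood apart (SE 0.38, FDR 0.956).

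Adamts16, the closest relative of Adamts18, was estimated at -0.21 in the neocortex (FDR 0.858) and at -0.16 in the hippocampus (FDR 0.896). Its cTKO libraries ranged from 1.56 to 5.74 CPM in neocortex and from 0.757 to 2.38 CPM in hippocampus. These ranges covered those of the controls, and no change of the paralogue was detected in either region.

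Ncan was at 259, 327, 311, 315 and 284 CPM in control hippocampus and 409, 345, 447, 332 and 354 CPM in cTKO hippocampus. All cTKO libraries exceeded all controls, with the lowest of them, library 4, at 332 CPM just above the highest control at 327 CPM. Ncan had a log2 fold change of 0.34 (SE 0.09, FDR 0.158), and the permutation p was 0.00794 (exact, two-sided). DESeq2 (FDR 0.0222) and the likelihood ratio test (FDR 0.0463) called it, and the other 16 alternatives did not, with an FDR of up to 0.306. Without library 4 the log2 fold change was 0.37 (FDR 0.123). In the neocortex, Ncan was at 326, 363, 380, 407 and 330 CPM in controls and 384, 371, 454, 394 and 354 CPM in cTKO mice (log2 fold change 0.12, FDR 0.632), and the hippocampal effect minus the neocortical one was 0.22 (SE 0.13, FDR 1.0).

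Cspg4, which encodes the NG2 proteoglycan of oligodendrocyte precursors and pericytes, was at 21.7, 22.4, 22.9, 21.6 and 27.6 CPM in control hippocampus and 17.7, 15.4, 19.1, 19.3 and 22.3 CPM in cTKO hippocampus. Of the cTKO libraries, only library 5 reached the range of the controls, and the log2 fold change was -0.30 (SE 0.1, FDR 0.261, exact permutation p = 0.0238). In the neocortex it was -0.17 (SE 0.08, FDR 0.483, exact permutation p = 0.0238), from libraries between 26.3 and 31.4 CPM (controls) and between 22.5 and 27.1 CPM (cTKO). Beside this, markers of oligodendrocyte precursors summed to 192 to 222 CPM in control and 167 to 210 CPM in cTKO hippocampus, and those of mural cells to 103 to 184 and 102 to 143 CPM. Their part in the level of Cspg4 was not tested.

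Adamts2, a procollagen N-propeptidase that also cleaves reelin, was at 17.3, 13.6, 9.94, 13.6 and 19 CPM in control hippocampus and 7.77, 8.27, 7.86, 7.62 and 14.3 CPM in cTKO hippocampus. Of the cTKO libraries 4 lay below every control, and library 5 within their range. Its log2 fold change was -0.67 (SE 0.2, FDR 0.206, exact permutation p = 0.0317), and without cTKO hippocampus library 5 it was -0.89 with an FDR of 0.0288, so that the call depends on that library. In the neocortex it was -0.24 (FDR 0.613). Its relative Adamts3 had log2 fold changes of -0.03 and 0.17 (FDR 0.947 and 0.76).

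Has3, a hyaluronan synthase, was at 2.91, 1.67, 2.89, 1.77 and 2.31 CPM in control and 1.23, 1.57, 1.69, 1.28 and 1.66 CPM in cTKO hippocampus, with a log2 fold change of -0.63 (SE 0.22, FDR 0.261, exact permutation p = 0.0159). Adamts20, a versican-cleaving protease, was at 15.1, 14.9, 14.4, 20 and 20.5 CPM in controls and 8.96, 16.7, 12.9, 13.6 and 10.7 CPM in cTKO mice (log2 fold change -0.43, SE 0.16, FDR 0.332, exact permutation p = 0.0635). For both genes, 4 of the 5 cTKO libraries lay below every control. Adamts17, of the ADAMTS proteases that act on fibrillin microfibrils, was at 8.89, 8.27, 10, 10.7 and 11.9 CPM and at 7.56, 8.1, 5.19, 7.9 and 9.47 CPM (log2 fold change -0.38, SE 0.15, FDR 0.351, exact permutation p = 0.0397), again with 4 of 5 cTKO libraries below every control. In the neocortex, Has3, Adamts20 and Adamts17 had log2 fold changes of -0.02, -0.12 and -0.14.

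**Figure D3:**
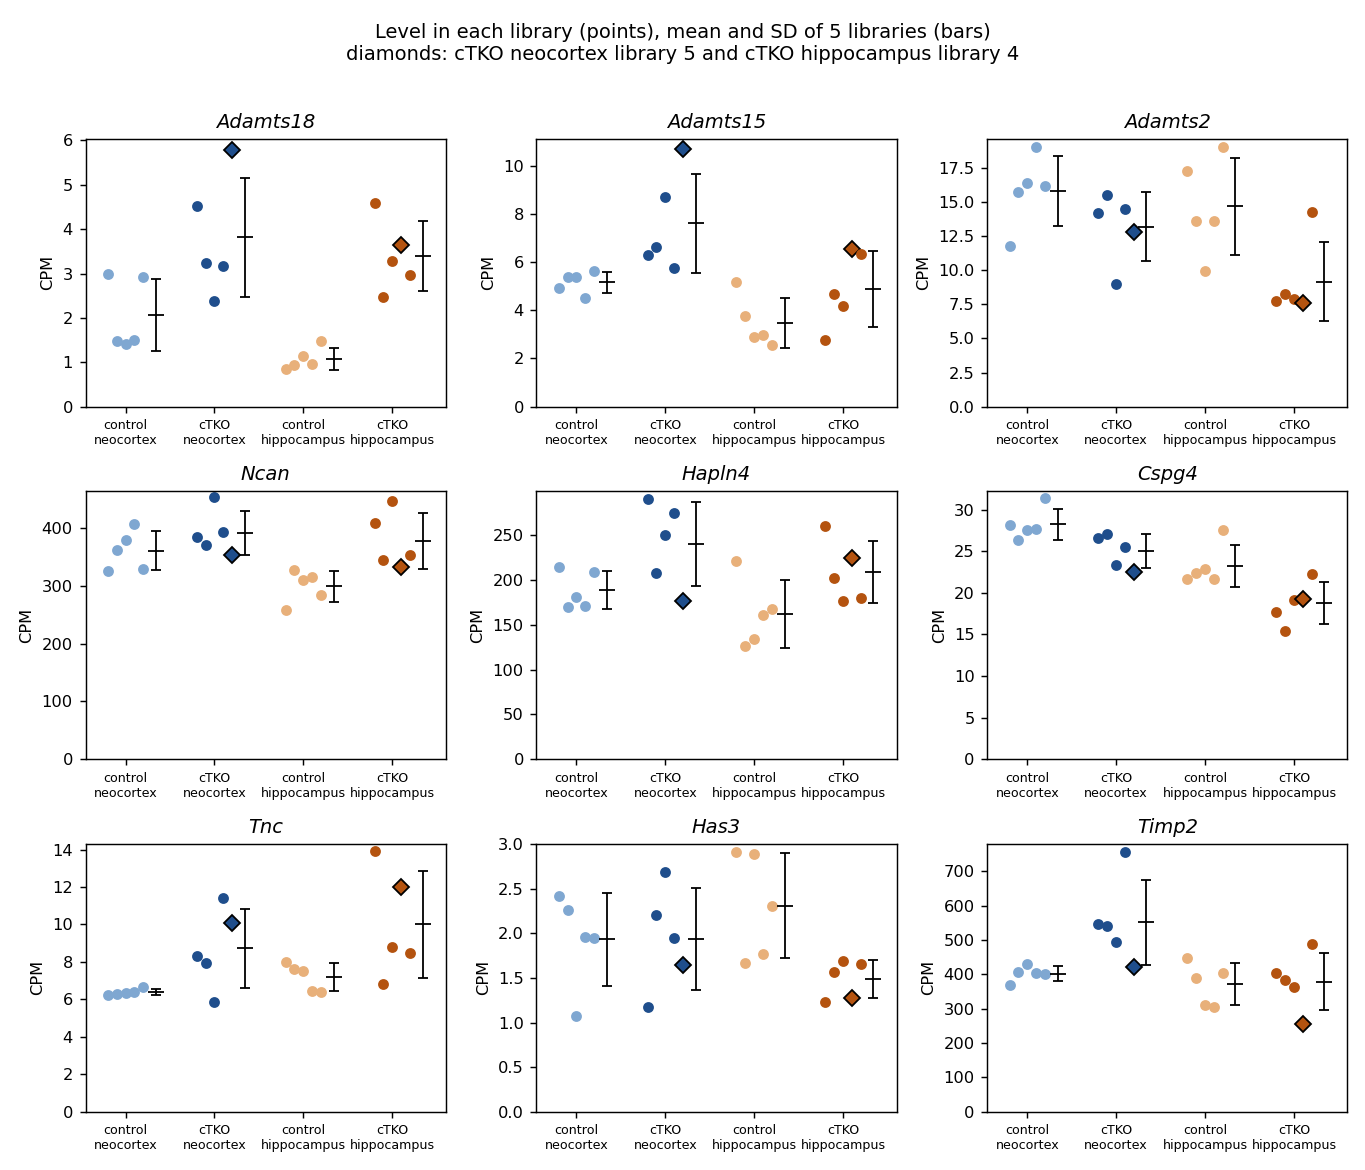
CPM of 9 genes in each library (points) of the 4 groups, with the mean and SD of 5 libraries beside them and diamonds for cTKO neocortex library 5 and cTKO hippocampus library 4. The cTKO hippocampus libraries of Adamts18 (2.48 to 4.6 CPM) all lie above the controls (0.854 to 1.47 CPM), while most of the other panels overlap.

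The remaining members showed no difference between genotypes that passed an unadjusted p of 0.05 in either region. Of the lecticans, Bcan had log2 fold changes of -0.08 and -0.16 and Acan of -0.03 and 0.41 (SE 0.21 and 0.26), in neocortex and hippocampus. The proteoglycans Cspg5 and Ptprz1, whose secreted form is phosphacan, lay within -0.08 and 0.04. Hapln1, which is needed for compact nets, had a log2 fold change of 0.12 in each region (FDR 0.696 and 0.584), and Hapln2, a link protein of nodes of Ranvier, of -0.31 and -0.30 (FDR 0.556 and 0.597). Hapln2 is made by oligodendrocytes, whose markers summed to between 2640 and 3530 CPM (controls) and 2130 and 4150 CPM (cTKO) for neocortex and to between 3160 and 4740 and 2930 and 5130 CPM for hippocampus, and their part in its level was not tested. Chst11, which sulphates chondroitin, had log2 fold changes of 0.13 and 0.00.

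Of the lectican-cleaving proteases not yet described, Adamts4, Adamts5, Adamts8 and Adamts9 had log2 fold changes from -0.21 to 0.31 for the neocortex and from -0.05 to 0.34 for the hippocampus. Adamts4, which oligodendrocytes of the adult brain are known to express, was at 0.02 in the hippocampus, and Adamts8 at 0.34 (FDR 0.424). Adamts6 had an estimate of 0.72 in the hippocampus with an SE of 0.41, since cTKO library 3 was at 11 CPM and the other 4 cTKO libraries at 1.57 to 4.27 CPM. Timp3, the TIMP that inhibits ADAMTS4 and ADAMTS5 and stays bound to matrix, had log2 fold changes of 0.02 and -0.15, and Timp4 of -0.10 and -0.19. Timp3 and Timp4 lie within Syn3 and Syn2 on the opposite strand, Has3 overlaps Chtf8 and Adamts9 overlaps 9530026P05Rik, and reads of such partners cannot be told apart, since whether HTSeq used strand is not given in the sources used here.

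Vcan was high in both libraries that stood apart, and its estimates depended on them. In the neocortex, controls were at 38.3, 39.6, 35, 42.5 and 30.8 CPM and cTKO libraries 1 to 4 at 39.7, 38.8, 30.4 and 37.1 CPM, whereas cTKO library 5 was at 101 CPM. In the hippocampus, controls were at 25.6, 29.1, 31.7, 32.1 and 32.3 CPM and cTKO libraries 1, 2, 3 and 5 at 27.5, 21.1, 29.3 and 26.9 CPM, and library 4 was at 74 CPM. The summed embryonic tissue genes were 618 and 380 CPM in these libraries, and their part in the level of Vcan was not tested. When each was left out, the log2 fold change of Vcan went from 0.41 (FDR 0.643) to -0.03 in the neocortex and from 0.25 (FDR 0.797) to -0.20 in the hippocampus (FDR 0.465), so that its sign turned in both regions.

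The genes under the filter were highest in the same libraries in several cases. Adamts19 was at 0.827 CPM (11 counts) in cTKO neocortex library 5 and 0.804 CPM (17 counts) in cTKO hippocampus library 4, while the other cTKO libraries were at 0.0625 to 0.196 and 0 to 0.218 CPM. Has2, the main hyaluronan synthase of the embryo, was at 2.63 and 1.56 CPM in these libraries and at 0.562 to 0.881 and 0.424 to 1.11 CPM in the other cTKO libraries. Controls of Has2 ranged over 0.246 to 0.654 CPM in neocortex and 0.226 to 0.557 CPM in hippocampus. The cTKO libraries other than the pair lay partly within and partly above these ranges. With the pair included, the permutation p of Has2 was 0.0317 in neocortex and 0.0476 in hippocampus (exact, two-sided). Timp1, which is induced in reactive astrocytes and in many injured tissues, was at 23.4 CPM (494 counts) in cTKO hippocampus library 4 and at 3.49, 0.392, 0.741 and 0.127 CPM in libraries 1, 2, 3 and 5, with controls at 0 to 0.226 CPM. In the neocortex the highest Timp1 was in cTKO library 4, at 4.33 CPM, and cTKO library 5 was at 1.13 CPM, with controls at 0 to 0.496 CPM. The permutation p of Timp1, again with the pair included, was 0.0317 in each region (exact, two-sided). For neither gene was a permutation test run without the pair. The groups of Timp1 overlapped in each region, and it lies within Syn1 on the opposite strand.

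**Figure D4:**
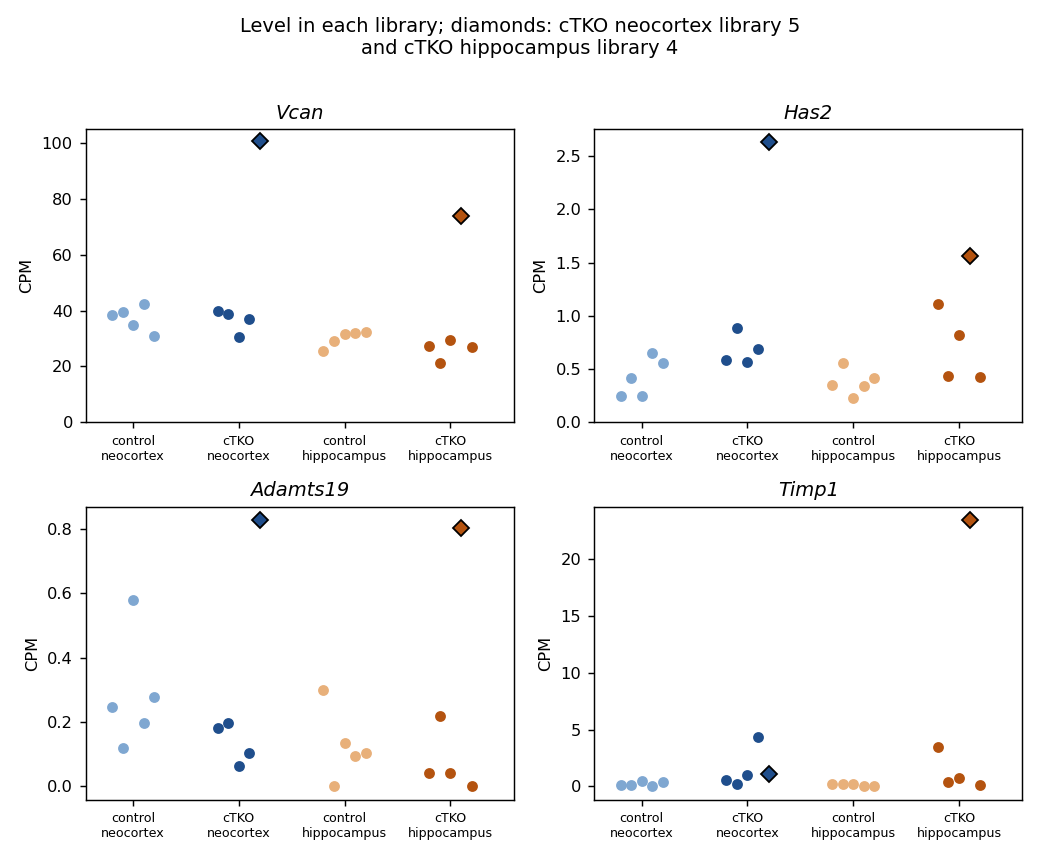
CPM of Vcan, Has2, Adamts19 and Timp1 in each library of the 4 groups, with diamonds for cTKO neocortex library 5 and cTKO hippocampus library 4. The diamonds are the highest points of their groups for Vcan (101 and 74 CPM), Has2 and Adamts19, and for Timp1 in the hippocampus (23.4 CPM) but not in the neocortex.

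Hapln3 and Has1 stayed near the lower limit, at 0.452 to 1.73 CPM and 0 to 0.784 CPM over the 20 libraries, and their genotypes overlapped in both regions. Library 5 of cTKO neocortex and library 4 of cTKO hippocampus were also at an end of their group for other members. In hippocampus library 4, Bcan was at 102 CPM, where the other cTKO libraries ranged from 182 to 235 CPM, and Timp2 and Timp4 were the lowest of their group as well. Without this library, the hippocampal log2 fold change went from -0.16 to -0.01 for Bcan and from -0.19 to -0.05 for Timp4. In neocortex library 5, Adamts9 was at 6.69 CPM and Adamts10 at 29.1 CPM, against 2.74 to 3.75 and 15.1 to 19.5 CPM. When it was left out, the neocortical log2 fold change turned from 0.16 to -0.12 for Adamts9 and from 0.12 to -0.05 for Adamts10. Markers of fibroblasts and meninges summed to 322 CPM in that library, the highest of the 4 cTKO neocortex libraries above all controls, and to 253 CPM in hippocampus library 4, where hippocampus controls ranged from 107 to 234 CPM, and their part in these levels was not tested.

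The second question was whether the members differed between hippocampus and neocortex. In control mice, 16 of 31 were called (51.6%, against 59.1% of all genes), 6 higher (29.8% of all genes) and 10 lower (29.2% of all genes) in the hippocampus. The groups did not overlap for 10 of 31 genes (32.3%, against 44% of all genes). The members higher in hippocampus were Hapln1, Chst11, Adamts1, Adamts9, Adamts20 and Timp4. Those lower were Ncan, Vcan, Cspg4, Cspg5, Hapln2, Adamts5, Adamts15, Adamts10, Adamts16 and Adamts18. The median log2 fold change was -0.11, beside 0.0119 over all genes.

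The link proteins Hapln1 and Hapln2 differed in opposite directions. Hapln1 was at 36.4, 31.5, 30.3, 31.8 and 32.1 CPM in control neocortex and 56, 52.6, 55.1, 54.8 and 65.6 CPM in control hippocampus (log2 fold change 0.80, SE 0.07, FDR 1.07e-07). Hapln2 was at 15.9, 20.2, 19.1, 22.7 and 19.2 CPM and at 8.89, 11.9, 13.8, 15.5 and 9.12 CPM (log2 fold change -0.71, SE 0.15, FDR 0.000627). Oligodendrocyte markers summed to 3160 to 4740 CPM in control hippocampus and 2640 to 3530 CPM in control neocortex, and their part in this difference was not tested. For both genes the regions did not overlap. Hapln4 had a log2 fold change of -0.23 that did not pass (FDR 0.13).

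The lecticans and other proteoglycans that were called were lower in the hippocampus by similar amounts, Ncan by -0.28, Vcan by -0.31, Cspg4 by -0.29 and Cspg5 by -0.27 on the log2 scale (SE 0.07 to 0.09, FDR 0.00355 to 0.00628). Acan had the largest estimate among the lecticans, -0.34, but with an SE of 0.18 it did not pass (FDR 0.133), from 4.64, 5.66, 6.53, 7.71 and 5.42 CPM in neocortex and 3.67, 3.85, 4.61, 7.05 and 4.51 CPM in hippocampus. Bcan (0.07, FDR 0.313) and both tenascins (0.02 and 0.17) did not pass the test. Chst11 was at 75.9, 78.3, 82.1, 87.8 and 87.3 CPM in neocortex and 127, 126, 127, 127 and 128 CPM in hippocampus, a log2 fold change of 0.62 (SE 0.05, FDR 6.6e-08).

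The widest estimates were those of proteases. Adamts9, which cleaves versican, was at 3.65, 3.22, 3.39, 4.12 and 2.99 CPM in neocortex and 10.4, 9.59, 9.99, 9.35 and 7.7 CPM in hippocampus, a log2 fold change of 1.43 (SE 0.12, FDR 1.09e-07). Adamts16 was at 3.98, 4.71, 4.38, 3.53 and 2.71 CPM in neocortex and 1.76, 1.41, 1.31, 1.92 and 1.31 CPM in hippocampus (log2 fold change -1.33, SE 0.19, FDR 2.36e-05). Neither gene overlapped between regions, and they marked the ends of the range of the 31 genes. Adamts18 was lower in control hippocampus as well (log2 fold change -0.98, SE 0.27, FDR 0.00601).

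Adamts1 (0.80, FDR 1.95e-05) and Adamts20 (0.34, FDR 0.0105) were higher and Adamts5 (-0.77, FDR 0.0043), Adamts15 (-0.57, FDR 0.0123) and Adamts10 (-0.60, FDR 0.000181) lower in the hippocampus. Thus 5 of the 7 lectican-cleaving proteases were called (59.1% of all genes), 3 higher (29.8% of all genes) and 2 lower (29.2%), whereas Adamts4 (-0.09) and Adamts8 (0.05) did not pass. Neither procollagen protease was called (-0.11 and -0.20). Of the TIMPs, Timp4 was at 14, 13.6, 16.4, 16.1 and 17.3 CPM in neocortex and 24.4, 30, 31.4, 32.3 and 33.4 CPM in hippocampus, without overlap (log2 fold change 0.97, SE 0.09, FDR 4.84e-07), while Timp2 (-0.12) and Timp3 (0.08) did not pass. Choroid plexus markers of control mice summed to between 9.32 and 14.4 CPM (neocortex) and between 75.4 and 2670 CPM (hippocampus), and astrocyte markers to 1100 to 1260 and 1620 to 1910 CPM, and their part in these regional differences was not tested.

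In cTKO mice, 11 of 31 genes were called between regions (35.5%, against 41.3% of all genes), 4 higher (20.2% of all genes) and 7 lower (21.1%) in hippocampus. The log2 fold changes of Hapln1 (0.80), Hapln2 (-0.71), Chst11 (0.49), Adamts9 (1.24), Adamts16 (-1.27), Adamts10 (-0.73), Adamts5 (-1.13), Cspg4 (-0.43) and Timp4 (0.87) were called in these mice as in controls. Timp2 (-0.55, FDR 0.0202) and Adamts2 (-0.54, FDR 0.0429) were called only here, and Adamts18 (-0.17, FDR 0.615), Adamts1 (0.28, FDR 0.244), Ncan (-0.06, FDR 0.642), Vcan, Cspg5, Adamts15 and Adamts20 only in controls. These lists do not show that the regional difference itself depended on genotype: in the test of that difference (the interaction), 0 of 32 genes were called (0.0564% of all genes, or 8 of 14192), and 2 had an unadjusted p under 0.05 (6.25%, against 3.75% of all genes), Adamts1 and Adamts18. DESeq2 and the likelihood ratio test called 0 of the 32 as well (0.183% of all genes in each). The groups did not overlap for 2 of 31 genes in cTKO mice (Hapln1 and Cspg4, 6.45%, against 28.6% of all genes). With both libraries that stood apart taken out, 11 of 31 genes were called (37.6% of all genes). Vcan then passed at -0.49 (FDR 0.00788) and Adamts2 no longer did (-0.50, FDR 0.101).

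**Figure D5:**
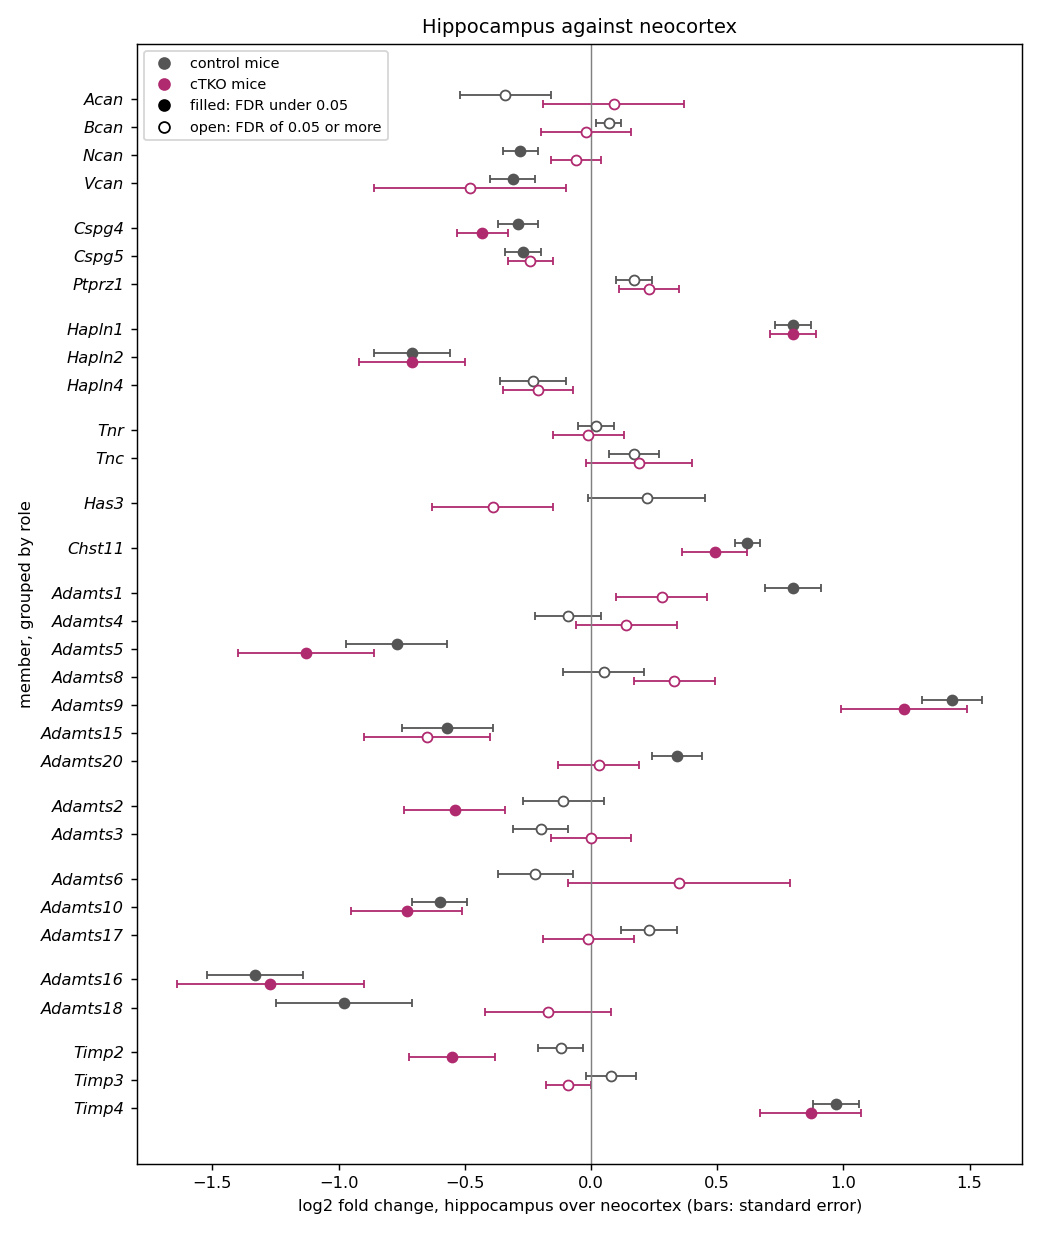
Log2 fold change of hippocampus over neocortex (horizontal axis, bars are standard errors) for the 31 tested genes in control mice (grey) and cTKO mice (magenta), grouped by role, with filled points for an FDR under 0.05. Adamts9 (1.43 and 1.24) and Adamts16 (-1.33 and -1.27) mark the ends, and the points of Adamts18 lie farther apart (-0.98 and -0.17) than those of most genes.

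Genes that make, bind or otherwise remodel the same matrix were read from a list of 57 genes. In the neocortex 49 and in the hippocampus 50 were tested for genotype, and 0 were called in either (0.188% and 0.489% of all genes). At an unadjusted p under 0.05, the quasi-likelihood test found 8 genes in the neocortex, 7 with more RNA in cTKO mice (5.57% of all genes in that direction), and 11 in the hippocampus, 10 with more (6.13%). The median log2 fold changes were 0.074 and 0.078. DESeq2, with 1.6% and 2.42% of all genes called in neocortex and hippocampus, called Ptprf and Ptprs, receptors of the LAR family of which PTPσ (Ptprs) binds chondroitin sulphate, in the neocortex (0.39 and -0.18, FDR 0.0181 and 0.0224), and Chst15, Nptx2 and Sema3a in the hippocampus (0.27, 1.72 and 0.86, FDR 0.00776, 0.0328 and 0.0376), genes named after their values were seen. The likelihood ratio test called Ptprf in the neocortex (1.21% of all genes) and Chst15 and Nptx2 in the hippocampus (1.89%). It did not call Ptprs or Sema3a.

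By group, the 9 receptors and partners of the net held 4 of 8 tested genes with an unadjusted p under 0.05 in the neocortex (10.4% of all genes) and 5 of 9 in the hippocampus (12% of all genes). Sema3a, a semaphorin that accumulates in nets, had 31.2 to 41.5 CPM (controls) and 35.1 to 45.8 CPM (cTKO) in neocortex, and 3.93 to 6.78 and 6.15 to 14.4 CPM in hippocampus. Nptx2, a neuronal pentraxin whose expression follows activity, ranged from 16.1 to 27.5 CPM in control hippocampus and from 22.9 to 171 CPM in cTKO hippocampus. The chondroitin sulphate synthesis genes held 1 of 19 in the neocortex and 4 of 19 in the hippocampus, and the other matrix proteases 2 of 15 and 0 of 16. Hyaluronan turnover and receptor genes held 1 of 7 and 2 of 6.

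Between regions of control mice, 29 of 50 genes of this list were called (58.0%, against 59.1% of all genes), 16 higher and 13 lower in hippocampus. The largest differences were those of Otx2 (4.11 on the log2 scale), Adamts14 (1.73) and Ust (1.61), which were higher, and Sema3a (-2.72), Papln (-2.04) and Nptx2 (-1.62), which were lower. Otx2, a transcription factor that choroid plexus secretes and net-bearing cells take up, ranged from 1.26 to 15.9 CPM in control hippocampus, where choroid plexus markers ranged from 75.4 to 2670 CPM, and from 0.0827 to 0.556 CPM in control neocortex. In cTKO mice, 16 of 51 were called (31.4%, against 41.3%), with Otx2 (2.54), Ust (1.66) and Chst7 (1.26) at the one end and Papln (-2.33), Sema3a (-2.10) and Adamtsl5 (-1.31) at the other. All genotype and region comparisons share libraries with one another, and their values are given side by side for that reason only.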

How the data were processed

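Per the labels, total RNA of neocortex and hippocampus was sequenced. The authors enriched poly-A RNA, mapped the reads to mm10 with STAR 2.5.4a (submitters' processing notes), ran HTSeq for the gene counts, and the deposited values are raw counts per gene symbol, 1 file for each of 20 libraries. No column was left without a sample (0). Total counts ranged from 12169474 to 25331954. Within groups, the 40 pairs of libraries differed by more than sampling noise (lowest chi-square per gene 3.82). Labels name separate samples, and the methods name 5 mice per genotype.

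The counts were tested with edgeR 4.0.16 in R 4.3.3 (TMM, estimateDisp, glmQLFit, glmQLFTest) on every gene that exceeded 1 CPM in 5 or more libraries of a fit, separately for genotype in each region, region in each genotype, and the interaction over 20 libraries. Benjamini-Hochberg adjustment was over every gene tested, with a threshold of FDR 0.05. Single genes were compared by exact two-sided permutation of log2 CPM (prior count 2). The alternatives were DESeq2 1.42.0, the likelihood ratio test, DESeq2's size factors, filterByExpr, no filter, sex (from Xist and Ddx3y) as a covariate, the library number as a block, a joint fit of the 20 libraries, each library left out, a prior count of 0.5, and both libraries with embryonic genes left out. On simulated counts with 200 genes changed 2-fold, the test recovered 89% in the neocortex (2.73% false calls) and 90% in the hippocampus (7.22%). Smaller changes were not simulated, so that these shares do not tell how often changes of the size estimated for most members would be called. Positions and exonic lengths are from GENCODE M21, promoters from RefSeq. The members, the other lists and the tests were chosen with earlier results of these data known. Values or ranges over libraries are given for members with an FDR or unadjusted p under 0.05 for genotype, in the region concerned. They are also given for the largest regional change in some roles (Acan, Hapln1, Chst11, Adamts9, Adamts16 and Timp4), and for members whose libraries stood apart. Of the 57 other genes, those called for genotype by DESeq2 and the 3 largest regional changes in each direction are named. Figures were drawn with matplotlib.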

Additional observations from a re-analysis of the deposited data

Results flagged for a closer look

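In 19 of 156 groups of 5 libraries examined (36 members and the 3 deleted genes in 4 groups), 1 library lay far from the other 4 by Dixon's criterion (gap over range above 0.71), where chance gives about 1 in 20, or 7.8. Of these, 7 were in cTKO hippocampus library 4 or cTKO neocortex library 5: Vcan at 74 and 101 CPM, Adamts19 at 0.804 and 0.827 CPM, Timp1 at 23.4 CPM in the former and Has2 at 2.63 CPM and Adamts9 at 6.69 CPM in the latter.

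In cTKO neocortex library 3, Acan was at 9.5 CPM (others 4.28 to 5.28), Chst11 at 116 CPM (79.4 to 86.2) and Timp4 at 19.7 CPM (12.3 to 14.3). This library was the highest of its group for 11 and the lowest for 11 of 32 members, and held 4150 CPM of oligodendrocyte markers. In cTKO neocortex library 4, Timp1 was at 4.33 CPM (0.245 to 1.13).

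In the cTKO hippocampus, Adamts5 was at 3.04 CPM in library 1 (others 1.09 to 1.48), Adamts6 at 11 CPM in library 3 (1.57 to 4.27) and Adamts2 at 14.3 CPM in library 5 (7.62 to 8.27). In control hippocampus, Acan was at 7.05 CPM in library 4 (3.67 to 4.61), Bcan at 230.0 CPM in library 2 (198 to 207), and in library 5 Cspg4 at 27.6 CPM (21.6 to 22.9), Hapln1 at 65.6 CPM (52.6 to 56) and the deleted gene Aplp2 at 495 CPM (630 to 677).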

How the results depend on the processing

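Adamts18 in the hippocampus was called under every alternative. The number of DEGs over all genes moved with the test. In the neocortex, 26 DEGs became 221 with DESeq2, 167 with the likelihood ratio test, 42 without a filter and 12 with the library number as a block, and 7 to 133 with 1 library left out (120 without cTKO library 3, 133 without cTKO library 5 and 7 to 15 without any one of the other 8). In the hippocampus, 67 became 331, 259 and, in one fit of all libraries, 189, and 15 to 149 with 1 library left out (149 without cTKO library 5 and 15 to 39 without cTKO library 2 or any one control). For the interaction, 8 became 26 with DESeq2, 26 with the likelihood ratio test and 18 with the block, and 5 to 20 with 1 library left out (20 without cTKO hippocampus 5, 15 without cTKO hippocampus 3, and 5 without control hippocampus 1 or 2 or cTKO neocortex 1). In the neocortex, the members called were 1 with DESeq2 (1.6% of all genes) and 1 with the likelihood ratio test (1.21%). With a library left out they were 0 to 1 (0.0507% to 0.966% of all genes). In the hippocampus they were 2 with DESeq2 (2.42%), 2 with the likelihood ratio test (1.89%) and 1 to 2 with a library left out (0.11% to 1.09%). The cause of these shifts was not tested.

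Between regions, the counts of members called stayed within 1.5 times under all alternatives run. Of the log2 fold changes of members with an unadjusted p under 0.05, none changed sign under any alternative. Of all 31 members, 9 in each genotype comparison took the opposite sign in at least 1 alternative, and 4 did so between regions of control mice, 9 between regions of cTKO mice and 16 of 32 for the interaction.

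The labels do not say whether library numbers pair the samples. Deviations of same-numbered libraries correlated between -0.174 and 0.305, and both ends came from pairs of different genotype, thus different mice. Across regions they correlated between 0.061 and 0.229 in controls and between -0.079 and 0.275 in cTKO mice. Every control library, and cTKO libraries 1, 2 and 3, correlated best with their own number across regions, as a hint from the data only. Neocortex library 5 of the cTKO mice correlated at 0.601 with hippocampus library 4. These are the libraries with embryonic tissue genes (618 and 380 CPM), whose part in this correlation was not tested. By Xist and Ddx3y, this neocortex library was called XX and this hippocampus library XY, whereas the calls matched for every same-numbered pair across regions. The main fits used no pairing, so that libraries of both regions entered the region and interaction tests as independent. With the number as a block, 0 of 31 members were called in the neocortex (0.0867% of all genes), 1 in the hippocampus (0.423%), 20 between regions of control mice (64.5% of members and 61.4% of all genes, where 51.6% and 59.1% were called without the block) and 11 between regions of cTKO mice (41.9%). Depth limits the genes under about 1 CPM, namely Hapln3, Has1, Has2, Adamts19 and Timp1 in controls, and the 17 to 28 counts of Adamts18 in control hippocampus.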
